A study of Mus musculus with 24 samples.

Results

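The 10 genes described here, Acss2, Elovl6, Fasn, Acaca, Acly, Scd1, Scd2, Fads1, Fads2 and Srebf1, encode enzymes of fatty acid synthesis, elongation and desaturation and a transcription factor that controls them. They were taken by symbol from a table of normalized expression, in which all 10 were found among 16996 genes. The members were selected on measured group differences in these same 24 samples, and which comparison prompted them is not recorded. The fold changes and adjusted p-values of the members are therefore descriptions of these 24 samples, read from a fit to the whole table, and are not independent evidence.

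RNA was sequenced from CD45+ cells of EMT6-hHER2 tumors in 24 female Balb/c mice, 10 to 12 weeks old and wild type, with 6 mice in each of 4 groups. EMT6-hHER2 is a murine breast cancer line carrying human HER2, kept as 1 clone after single-cell sorting. Tumors of 80 mm3 were left untreated or were treated with trastuzumab at 20 mg/kg, with T-DM1 at 15 mg/kg or with T-PNU at 1 mg/kg, and were taken on day 10. Trastuzumab is an antibody against HER2, T-DM1 is trastuzumab joined to a maytansinoid that blocks microtubules, and T-PNU is trastuzumab joined to an anthracycline payload. The doses of the agents differ, so a difference between T-PNU and T-DM1 is at least one of payload and dose together. The study's methods describe T-PNU tumors as smaller at harvest than at treatment, and it reports that T-DM1 did not prevent tumor growth. Tumor size and response at harvest therefore cannot be told apart from treatment either. Column headings carry a number for each sample, whose meaning is not stated. These numbers fall in a separate unbroken range for each of the 4 groups. Whatever they stand for cannot be told apart from treatment in any comparison, T-PNU versus T-DM1 included.

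Fatty acids are built from acetyl-CoA in the cytosol, then lengthened and desaturated at the endoplasmic reticulum. SREBP-1, the product of Srebf1, is held at that membrane until it is processed and moves to the nucleus, where it raises transcription of lipogenic genes. Macrophages and activated lymphocytes use the pathway for membranes and lipid mediators, and tumor cells and adipocytes use it heavily as well.

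Promoter sequence is shown for 4 members whose levels are central below. Fads2 and Elovl6 were among the members with the largest differences between T-PNU and T-DM1, and Fasn and Srebf1 varied together within groups and apart from Fads2. Each line gives the 250 bases before a start site on the gene's strand, 5′ to 3′, from RefSeq on GRCm38.p6. Capitals mark matches, on either strand, to the letters ATCACCC (part of a sterol response element), CCAAT (the NF-Y box) or GGGCGG (the GC box).
Fads2 (chr19:10101504-10101753, minus strand): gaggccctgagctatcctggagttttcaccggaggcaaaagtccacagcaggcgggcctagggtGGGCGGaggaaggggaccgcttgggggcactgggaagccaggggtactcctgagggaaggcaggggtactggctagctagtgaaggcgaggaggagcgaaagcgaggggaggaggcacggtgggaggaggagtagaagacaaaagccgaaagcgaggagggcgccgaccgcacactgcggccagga
Elovl6 (chr3:129532136-129532385, plus strand): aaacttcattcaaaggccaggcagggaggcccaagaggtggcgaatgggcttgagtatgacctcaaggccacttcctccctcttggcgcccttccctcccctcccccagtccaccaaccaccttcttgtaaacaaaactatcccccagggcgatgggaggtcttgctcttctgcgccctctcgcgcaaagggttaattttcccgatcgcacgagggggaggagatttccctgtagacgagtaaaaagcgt
Fasn (chr11:120824548-120824797, minus strand): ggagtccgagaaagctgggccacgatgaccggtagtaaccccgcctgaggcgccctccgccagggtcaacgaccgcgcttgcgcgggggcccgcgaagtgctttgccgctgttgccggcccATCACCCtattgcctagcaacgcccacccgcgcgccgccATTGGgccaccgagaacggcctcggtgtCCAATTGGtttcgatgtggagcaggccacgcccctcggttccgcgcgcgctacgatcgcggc
Srebf1 (chr11:60210472-60210721, minus strand, 1 of its 3 listed starts): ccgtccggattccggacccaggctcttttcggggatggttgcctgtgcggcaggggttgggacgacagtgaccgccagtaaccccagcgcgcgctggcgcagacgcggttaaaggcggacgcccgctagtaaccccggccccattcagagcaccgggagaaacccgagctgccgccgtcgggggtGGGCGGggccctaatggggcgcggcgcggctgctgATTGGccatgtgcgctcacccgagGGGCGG
The Fasn window held ATCACCC 129 bases before the start and CCAAT at 90, 62 and 59 bases, the last pair overlapping on opposite strands. The Srebf1 window held CCAAT at 30 bases and GGGCGG at 65 and 6 bases, and the Fads2 window held GGGCGG at 186 bases. The Elovl6 window held none of the 3. Over 32851 RefSeq promoters, windows of this length held ATCACCC in 2.28%, CCAAT in 33.8% and GGGCGG in 32.7%. The letters TCACNCCAC, found in 1.05% of all windows, TCANNTGA, found in 7.09%, and the DR4 element of the LXR receptors, found in 0.0152%, were in no window of the 7 members matched. These matches describe letters only.

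The values are log2 expression normalized for library size. Across samples, the median over all genes ran from 8.73 to 8.87, and no depth per sample can be given because counts were not used here. The study labels 20 of the 24 samples in its heatmaps, and the other 4 are B1 and C1 of the untreated group and B3 and E2 of the trastuzumab group. The study's methods describe comparing expression between samples to find and remove outliers, and name no sample. If the 4 were left out on their expression, the spread over the 20 is too small. The p-values over the 20 samples are therefore descriptions and no independent check. The results below use all 24 samples, and the same fit over the 20 is given beside them because the calls differ. The leukocyte gene Ptprc, which encodes CD45, had a higher level in T-PNU than in T-DM1 samples by 0.76 (log2, limma adjusted p = 0.00569).

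Per kilobase of exon and averaged over the 24 samples, the level was highest for Scd2 (11.08 on the log2 scale), followed by Acly (10.62), Scd1 (10.20) and Fads1 (9.72). Fasn (9.08), Elovl6 (8.29), Srebf1 (8.13) and Fads2 (7.89) lay between, and Acaca (6.44) and Acss2 (6.07) were lowest. Genes of one arm thus had very unequal levels, with Fads1 above Fads2, which acts in the same pathway.

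Over the 24 samples, members passed the test most often between T-PNU and T-DM1, although their median difference was no larger there than against untreated mice. All 10 genes had lower means with T-PNU, and 7 fell past an adjusted p of 0.05 in limma (Fads2, Scd2, Elovl6, Acss2, Fads1, Srebf1 and Acaca), where 29.8% of all genes passed in either direction and 17.4% were lower. For 5 of them (Acss2, Elovl6, Acaca, Scd2 and Fads2) every T-PNU value lay below every T-DM1 value, a separation that 7.73% of all genes showed in this direction. At the median, the members differed by -0.47 on the log2 scale and all genes by 0.03. Fasn, Scd1 and Acly did not pass.

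Against untreated mice, 7 members had lower and 3 higher means with T-PNU, and the median was -0.49 beside 0.01 for all genes. None passed in limma (6 at an unadjusted p under 0.05), where 0.188% of all genes did. Over the 20 samples the same 6 fell, namely Fads2, Elovl6, Scd2, Fads1, Acaca and Acss2, beside 15.7% of all genes lower. Without untreated C1 alone 6 members were called lower beside 9.68% of all genes, without T-PNU G1 alone 6 beside 4.64%, and without T-PNU A2 alone 4 beside 0.918%. Against trastuzumab, all 10 means were lower with T-PNU (median -0.38, all genes 0.01). None passed over the 24 samples in limma (6 at an unadjusted p under 0.05), where 0.00588% of all genes did, while over the 20 samples 6 fell beside 13.5% of all genes. These comparisons share the T-PNU samples. Over the 20 samples 8 members fell against T-DM1, Fasn being the addition, beside 20.1% of all genes. The T-PNU and T-DM1 samples are the same in both fits, so the fold changes did not change. The shared estimate of the spread did, and the standard error of Fasn went from 0.19 to 0.16.

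**Figure D1:**
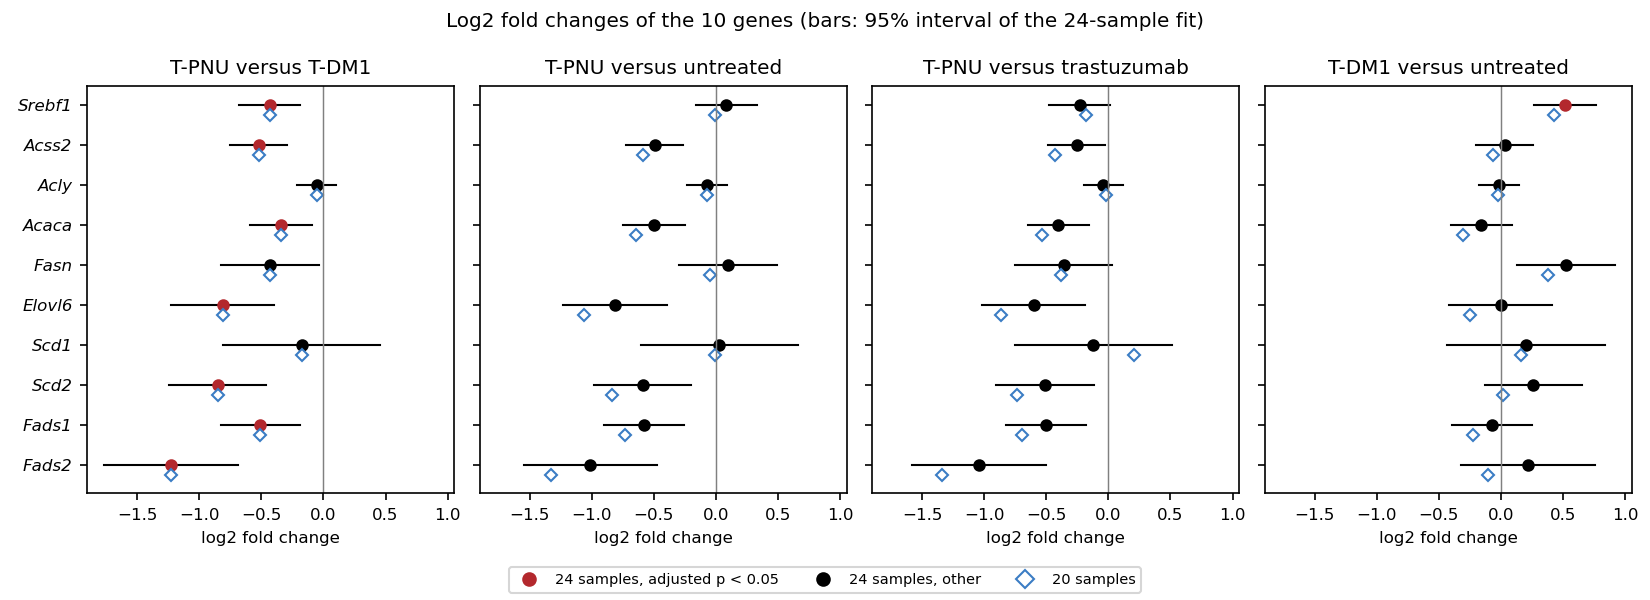
Log2 fold changes of the 10 genes in 4 comparisons, with the gene on the vertical axis and the log2 fold change on the horizontal one. Circles are the 24-sample fit with 95% intervals, red where the adjusted p is under 0.05, and diamonds are the 20-sample fit. Fads2 had the lowest value in each of the 3 T-PNU comparisons (-1.23, -1.01 and -1.04), and Acly lay between -0.07 and -0.02 in all 4.

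Srebf1 (ENSMUSG00000020538, chromosome 11, 60199089 to 60222581) encodes SREBP-1. Its lowest, median and highest values were 10.16, 10.37 and 10.70 in untreated mice and 10.32, 10.74 and 10.96 with trastuzumab. With T-DM1 they were 10.56, 10.97 and 11.12, and with T-PNU 10.07, 10.57 and 10.64. Most T-DM1 values stood above the untreated and T-PNU groups, with an overlap at the T-DM1 sample H3. Srebf1 rose with T-DM1 over untreated by 0.52 (95% interval 0.27 to 0.76, limma adjusted p = 0.0149) and fell with T-PNU against T-DM1 (-0.43, adjusted p = 0.0109), while T-PNU and untreated differed by 0.08 (adjusted p = 0.657). It was the only member called between T-DM1 and untreated, where 6.27% of all genes passed and 4.11% were higher. Over the 20 samples the value was 0.43 and did not pass (limma adjusted p = 0.0910).

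Acss2 and Acly make cytosolic acetyl-CoA, from acetate and from citrate. Acss2 (ENSMUSG00000027605, chromosome 2, 155517948 to 155585724) had lowest, median and highest values of 9.21, 9.63 and 9.78 untreated and 8.89, 9.44 and 9.69 with trastuzumab. They were 9.44, 9.64 and 9.73 with T-DM1 and 8.98, 9.10 and 9.24 with T-PNU. All T-PNU values lay below all T-DM1 values and below every untreated value but that of C1. Acss2 fell with T-PNU against T-DM1 by 0.52 on the log2 scale (-0.52, 95% interval -0.75 to -0.29, limma adjusted p = 0.00304). Against untreated the value was -0.49 (adjusted p = 0.0519), and over the 20 samples -0.59 (adjusted p = 0.000339).

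Acly (ENSMUSG00000020917, chromosome 11, 100476353 to 100528000), which cleaves citrate, was the steadiest member. Its values ran from 12.83 to 13.25 untreated, 12.90 to 13.08 with trastuzumab, 12.92 to 13.12 with T-DM1 and 12.77 to 13.29 with T-PNU, with medians of 13.06, 13.03, 13.02 and 12.92. The groups overlapped throughout, and T-PNU differed from T-DM1 by -0.05 (95% interval -0.21 to 0.10, limma adjusted p = 0.602). Its spread within groups, an SD of 0.13, was lower than that of most genes (percentile 16.4).

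Acaca (ENSMUSG00000020532, chromosome 11, 84129672 to 84401651) encodes acetyl-CoA carboxylase, which makes malonyl-CoA in the committed step. Its lowest, median and highest values were 10.21, 10.76 and 11.03 untreated, 10.26, 10.64 and 10.95 with trastuzumab, 10.48, 10.56 and 10.68 with T-DM1 and 10.01, 10.16 and 10.47 with T-PNU. The T-PNU and T-DM1 groups met without overlapping, since T-PNU G1 lay just under T-DM1 C3. Acaca fell with T-PNU against T-DM1 (-0.34, 95% interval -0.59 to -0.09, limma adjusted p = 0.0363), but the call held in only 3 of the 12 fits that left out 1 sample. Against untreated the value was -0.50 (adjusted p = 0.0575).

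Fasn (ENSMUSG00000025153, chromosome 11, 120805846 to 120824547), the synthase that builds palmitate, had lowest, median and highest values of 11.34, 12.34 and 12.67 untreated and 12.32, 12.72 and 12.98 with trastuzumab. With T-DM1 they were 12.41, 12.80 and 13.14, and with T-PNU 11.94, 12.25 and 12.94. T-PNU overlapped every other group, C2 and B2 being its highest samples. T-PNU differed from T-DM1 by -0.43 (limma adjusted p = 0.0877) and from untreated by 0.10 (95% interval -0.30 to 0.49, adjusted p = 0.753). T-DM1 was higher than untreated by 0.53, without passing (limma adjusted p = 0.0942).

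Elovl6 (ENSMUSG00000041220, chromosome 3, 129532355 to 129638495) encodes the elongase that lengthens palmitate to stearate. Its lowest, median and highest values were 10.20, 11.27 and 11.75 untreated, 10.29, 11.18 and 11.51 with trastuzumab, 11.05, 11.23 and 11.43 with T-DM1 and 10.12, 10.49 and 10.57 with T-PNU. Apart from untreated C1 and trastuzumab E2, no sample of another group reached down to the T-PNU values. Elovl6 fell with T-PNU against T-DM1 (-0.81, 95% interval -1.23 to -0.40, limma adjusted p = 0.00617), a level 43.0% lower. Against untreated the value was also -0.81 (adjusted p = 0.0586), and over the 20 samples -1.06 (adjusted p = 7.77e-05).

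Scd1 and Scd2 encode stearoyl-CoA desaturases, which turn saturated into monounsaturated fatty acids. The genes lie 87590 bases apart on chromosome 19, and reads shared by such close paralogs could be split or lost in counting. Scd2 (ENSMUSG00000025203, 44293674 to 44306864) had lowest, median and highest values of 12.89, 13.83 and 13.94 untreated and 12.94, 13.64 and 14.09 with trastuzumab. They were 13.61, 13.92 and 14.08 with T-DM1 and 12.56, 12.99 and 13.44 with T-PNU, so that the T-PNU and T-DM1 groups did not overlap. Scd2 fell with T-PNU against T-DM1 (-0.85, 95% interval -1.24 to -0.46, limma adjusted p = 0.00362). Against untreated the value was -0.59 (adjusted p = 0.0858), and over the 20 samples -0.84 (adjusted p = 0.00244).

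Scd1 (ENSMUSG00000037071, 44394455 to 44407879) behaved otherwise. Its lowest, median and highest values were 11.17, 12.40 and 13.46 untreated, 12.09, 12.31 and 13.41 with trastuzumab, 12.32, 12.51 and 12.90 with T-DM1 and 11.57, 12.40 and 13.14 with T-PNU. The medians lay close together, and the spread lay within the groups, with an SD of 0.57 that exceeded that of most genes (percentile 96.1). T-PNU differed from T-DM1 by -0.18 (95% interval -0.81 to 0.46, limma adjusted p = 0.678) and from untreated by 0.03 (95% interval -0.61 to 0.66, adjusted p = 0.960). The first of these intervals ended just above the value of Scd2 (-0.85), and the second held that of Scd2 (-0.59).

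Fads1 and Fads2 encode the desaturases that make long polyunsaturated fatty acids, the precursors of arachidonic acid mediators, and lie 81141 bases apart on chromosome 19. Fads2 (ENSMUSG00000024665, 10062765 to 10101746) had lowest, median and highest values of 8.70, 10.03 and 10.28 untreated and 8.99, 9.92 and 10.54 with trastuzumab. They were 9.83, 9.99 and 10.26 with T-DM1 and 7.89, 8.89 and 9.28 with T-PNU. All T-PNU values lay below all T-DM1 values, and C2 was lowest. Fads2 fell with T-PNU against T-DM1 (-1.23, 95% interval -1.77 to -0.69, limma adjusted p = 0.00288), a level 57.3% lower. Against untreated the value was -1.01 (adjusted p = 0.0638), and over the 20 samples -1.33 (adjusted p = 0.000988).

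Fads1 (ENSMUSG00000010663, 10182888 to 10196877) had lowest, median and highest values of 11.78, 12.24 and 12.46 untreated, 11.55, 12.14 and 12.62 with trastuzumab, 11.92, 12.14 and 12.24 with T-DM1 and 11.10, 11.61 and 11.93 with T-PNU. A single T-PNU sample, A2, reached into the T-DM1 range. Fads1 fell with T-PNU against T-DM1 (-0.51, 95% interval -0.83 to -0.19, limma adjusted p = 0.0187), and without T-PNU C2 it did not pass. Against untreated the value was -0.58 (adjusted p = 0.0664), and over the 20 samples -0.73 (adjusted p = 0.00307).

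**Figure D2:**
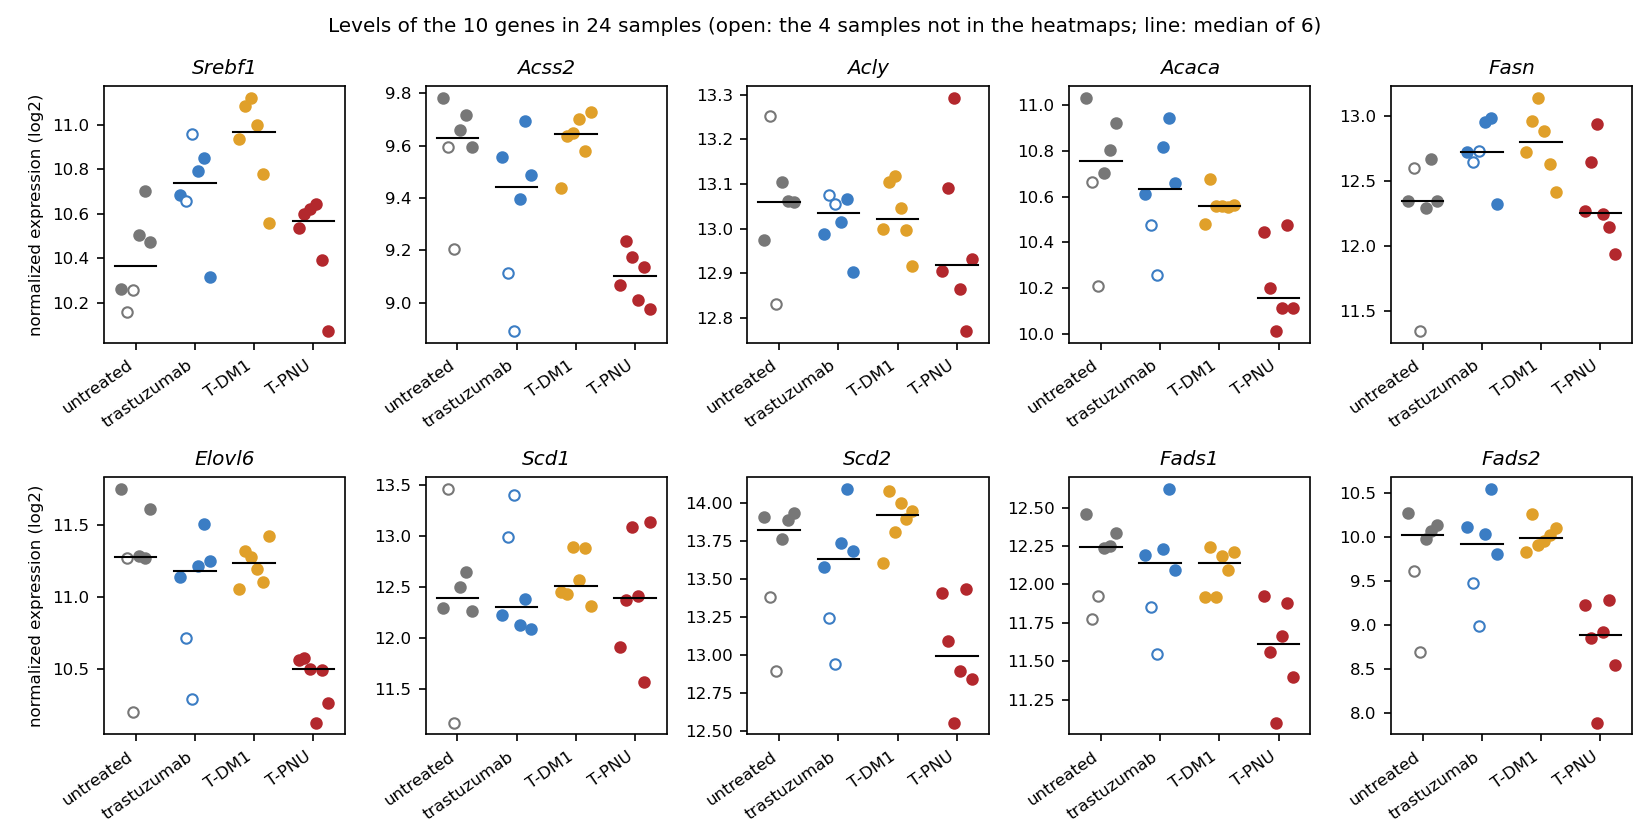
Normalized expression (log2) of each gene in each sample, by group, with lines at the median of 6 mice and open circles for the 4 samples that are not in the study's heatmaps. T-PNU values lay below all T-DM1 values for Acss2, Acaca, Elovl6, Scd2 and Fads2, and untreated C1 was the lowest untreated sample for 8 of the 10 genes.

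The remaining comparisons called no member. Between trastuzumab and untreated the median of the members was -0.05 (0 passed in limma, 3 at an unadjusted p under 0.05, beside 0.259% of all genes that passed). Between T-DM1 and trastuzumab the median was 0.13 (0 passed, 1 at an unadjusted p under 0.05, beside 0.647% of all genes).

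Single mice stood apart across several genes. Untreated C1 was the lowest untreated sample for 8 members, and trastuzumab E2 was the lowest of its group for 6. Among T-PNU samples, G1 and A2, which the study marks as low-responding, were the highest pair for Acaca, Scd2, Fads1 and Fads2 and the lowest pair for Scd1. T-PNU C2 was lowest for the same 4 genes. How response was defined is not given in the sources used here.

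Scd1 minus Scd2 (log2) had medians of -1.44 untreated, -1.47 with trastuzumab, -1.29 with T-DM1 and -0.60 with T-PNU. It exceeded 0 in 4 samples, untreated B1 (0.08), trastuzumab E2 (0.46) and T-PNU H1 (0.30) and C2 (0.54). With T-PNU B2 (-0.72) and D2 (-0.48) and trastuzumab B3 (-0.25) these made 7 samples above -0.8, while no other sample exceeded -0.91. Of these 7, 3 are samples that are not in the heatmaps.

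To describe how the members vary among themselves, each value was taken as its deviation from its own group mean, which removes the group differences, and 45 pairs were correlated over the 24 samples. Permutation p-values (100000 permutations within groups) were adjusted over the 45 pairs, and 19 pairs passed 0.05. Acaca, Scd2, Fads1 and Fads2 formed a tight block. Pearson's r was 0.953 for Scd2 and Fads2 (Spearman's rho 0.921, permutation test, adjusted p = 9e-05), 0.952 for Acaca and Scd2 (rho 0.955, permutation test, adjusted p = 9e-05) and 0.898 for Fads1 and Fads2 (rho 0.937, permutation test, adjusted p = 9e-05). Without the 2 samples farthest from the median these were 0.920, 0.919 and 0.843. The adjusted value of 9e-05 comes from the smallest p that these permutations can give, 1e-05.

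Elovl6 and Acss2 varied together (r = 0.889, rho 0.763, permutation test, adjusted p = 0.000129, and 0.791 without the 2 farthest samples). Elovl6 also varied with Acaca (r = 0.882, rho 0.775, permutation test, adjusted p = 0.000169, and 0.757 without them). Over the 20 samples these were 0.63 and 0.64, so part of both rested on the other 4 samples. Fasn, Acly, Srebf1 and Scd1 were linked outside that block. For Fasn and Acly r was 0.811 (rho 0.823, permutation test, adjusted p = 0.0003, and 0.725 without the 2 farthest), for Acly and Scd1 0.723 (rho 0.616, permutation test, adjusted p = 0.00277, and 0.640) and for Fasn and Srebf1 0.629 (rho 0.667, permutation test, adjusted p = 0.00557, and 0.703).

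Scd1 ran opposite to Fads1 (r = -0.583, rho -0.618, permutation test, adjusted p = 0.0221, and -0.768 without the 2 farthest samples). For Scd1 and its neighbor Scd2, r was -0.326 (rho -0.504, permutation test, adjusted p = 0.341) and -0.742 without the 2 farthest samples, so the pooled value depended on those samples. Srebf1 and Scd2 had an r of 0.08 and Srebf1 and Fads2 an r of 0.08, and neither passed. All values of a sample share 1 library and its cell mixture.

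**Figure D3:**
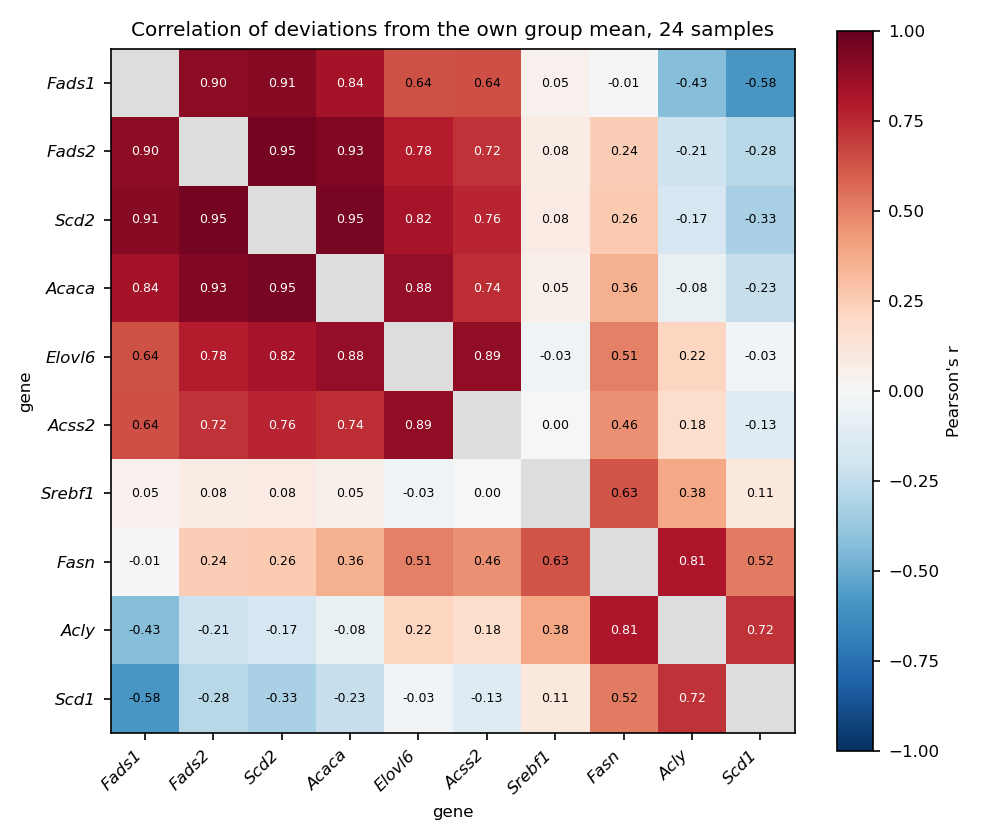
Pearson's r between the members' deviations from their own group means over 24 samples, with both axes listing the genes and color giving r from -1 to 1. Fads1, Fads2, Scd2 and Acaca form a block of high values, and Scd1 has negative values with them, down to -0.583 with Fads1.

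Marker genes of leukocyte types, and of fibroblasts, endothelium and adipocytes, moved with the same samples. The cells were isolated with anti-CD45 magnetic beads, a selection meant to remove cells other than leukocytes, and the study's methods state that purity was high by flow cytometry. The same deviations were correlated with the mean deviation of 13 marker lists, 130 relations in all, of which 55 passed after adjustment. None of the 55 was with epithelial genes, the nearest being Elovl6 (r = -0.414, rho -0.480, permutation test, adjusted p = 0.0649). The mean deviation of that list weighs every gene alike, low ones included. Its group mean was higher with T-PNU than with T-DM1 (0.32 against -0.05), while that of the summed epithelial level (log2) was lower (13.27 against 13.91). The part of tumor cells in the members' levels was not tested. Fads1 ran opposite to T cell genes (r = -0.916, rho -0.948, permutation test, adjusted p = 0.000163, and -0.898 without the 2 farthest samples) and with proliferation genes (r = 0.919, rho 0.915, permutation test, adjusted p = 0.000163, and 0.917). Scd2 ran opposite to leukocyte genes (r = -0.871, rho -0.847, permutation test, adjusted p = 0.000163, and -0.772). Fads2 ran with proliferation genes (r = 0.851, rho 0.883, permutation test, adjusted p = 0.000163, and 0.808). Fibroblast genes also ran with Fads2 (r = 0.698, rho 0.661, permutation test, adjusted p = 0.00621, and 0.580). They passed as well with Fads1 (r = 0.584), Scd2 (r = 0.577) and Acaca (r = 0.545), and with no other member. The relations with endothelial and adipocyte genes that passed were negative.

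Scd1 showed the reverse of Fads1 for T cell genes, but its r with leukocyte genes was 0.109 and did not pass. It ran with B cell genes (r = 0.797, rho 0.833, permutation test, adjusted p = 0.00026, and 0.733 without the 2 farthest samples) and T cell genes (r = 0.620, rho 0.627, permutation test, adjusted p = 0.0148, and 0.444), and opposite to macrophage and monocyte genes (r = -0.731, rho -0.610, permutation test, adjusted p = 0.00320, and -0.465). Acaca ran opposite to dendritic cell genes (r = -0.856, rho -0.857, permutation test, adjusted p = 0.000163, and -0.826). In bulk RNA, fewer cells of a type and less RNA per cell cannot be told apart.

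**Figure D4:**
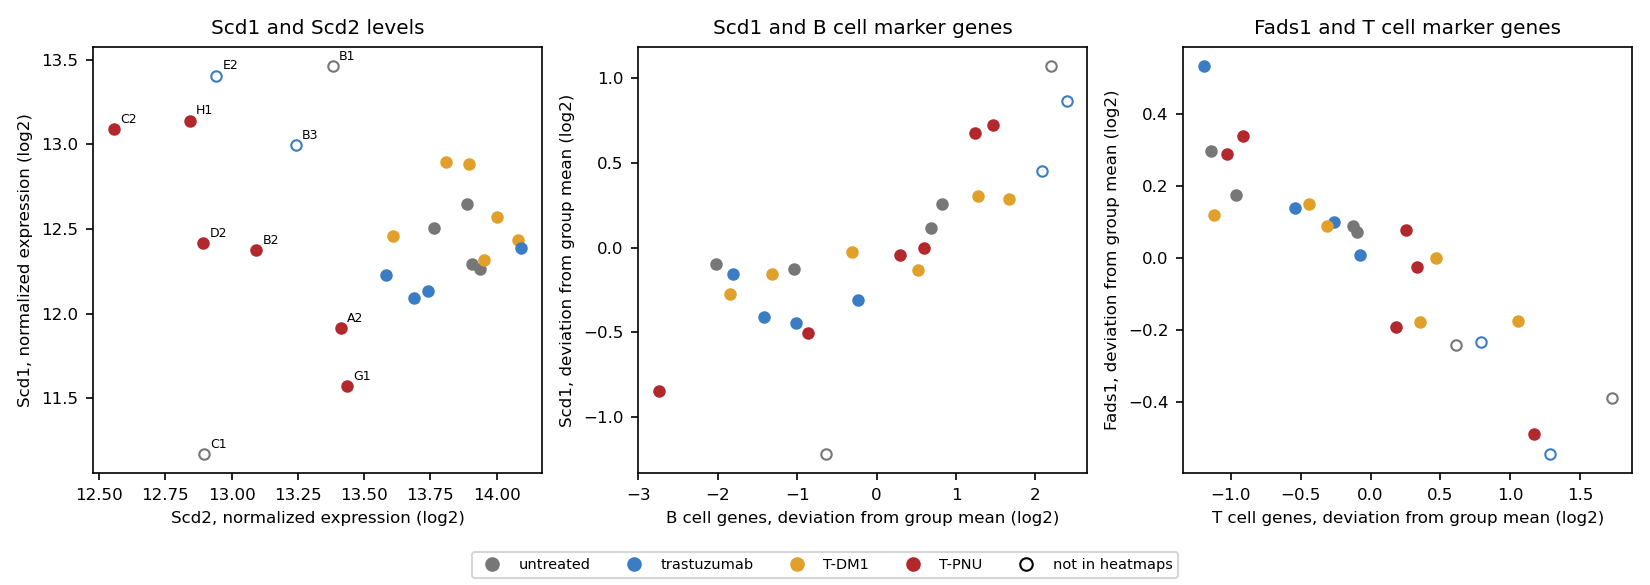
Left, Scd1 against Scd2 (normalized expression, log2) in 24 samples. Middle and right, the deviation from the group mean (log2) of Scd1 against B cell genes and of Fads1 against T cell genes. Open circles are the 4 samples outside the heatmaps, r was 0.797 and -0.916, and E2, B1, H1 and C2 had Scd1 above Scd2.

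The cell mixture also differed between T-PNU and T-DM1 samples. In this comparison 17.4% of all genes passed as lower with T-PNU and 2111 of 16996 as higher. The counts below are to be read beside these shares. Of the 10 fibroblast genes 6 were lower with T-PNU, and their summed level (log2) ran from 14.71 to 16.07 with T-PNU and from 16.57 to 17.11 with T-DM1, led by Col1a2. Of the 12 macrophage and monocyte genes 7 were higher with T-PNU (17.63 to 18.16 against 17.09 to 17.59, led by Apoe), as were 4 of 6 leukocyte genes (17.13 to 17.48 against 16.77 to 17.09, led by Lcp1). Endothelial genes were higher in 6 of 7 and NK cell genes in 5 of 5, and Fabp4 and Car3 were the 2 of 7 adipocyte genes that were. Neutrophil and dendritic cell genes were higher in 2 of 8 and 2 of 9. The medians were 0.90 for T cell genes and 1.01 for B cell genes, but 0 of 9 and 0 of 7 passed in limma (3 and 0 at an unadjusted p under 0.05). Of 8 proliferation genes 1 was lower and 1 higher, with sums of 14.79 to 15.19 against 14.87 to 15.10. Of 10 epithelial genes 1 was lower, Krt8 (-0.96, limma adjusted p = 0.00434), and 4 were higher. Krt8 was the most abundant of the 10 (mean log2 level 13.01), and 3 of them averaged under 5. The summed epithelial level was mostly lower with T-PNU, 12.58 to 13.70 against 13.60 to 14.19 with T-DM1. The most abundant genes of the other lists, by mean level (log2), were Lck (10.74) for T cells, Cd79a (9.83) for B cells, Eomes (8.19) for NK cells, Ccr7 (12.58) for dendritic cells, S100a9 (14.01) for neutrophils, Pecam1 (11.41) for endothelium, Pcna (13.22) for proliferation and Hba-a1 (7.74) for red blood cells. The part of these shifts in the fall of the members was not tested. Untreated samples had fibroblast sums of 15.10 to 16.36, below all T-DM1 sums and overlapping those of T-PNU.

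Adipocytes, a strong source of lipogenic transcripts, had their defining genes near the bottom of the table. Their summed level (log2) ran from 11.59 to 12.29 with T-PNU and from 11.23 to 11.49 with T-DM1. Adipoq averaged 3.04, Cfd 3.35, Retn 2.97 and Car3 3.76 (log2), where values over all genes began at 1.13. Pnpla2, Lipe and Fabp4, which other cells also express, averaged 10.69, 8.60 and 9.73.

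Genes around the members were read from 8 lists. Counts against T-DM1 are to be read beside the 17.4% of all genes that were lower with T-PNU. In the sterol synthesis arm, which SREBP-2 controls, 18 of 21 genes fell with T-PNU against T-DM1 and 0 rose, with a median of -0.85, which is lower than the -0.47 of the members. Sqle, squalene epoxidase, had the lowest value (-1.36, limma adjusted p = 0.00276), and Ebp the highest (0.10, adjusted p = 0.245). Against untreated, only Fdps passed in limma (-0.88, adjusted p = 0.0483), with a median of -0.64 for the list.

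Among other desaturases and their electron donors, 5 of 9 fell and 1 rose against T-DM1, beside 17.4% of all genes lower. These were Fads3 (-1.05), Scd3 (-0.66), Cyb5r3 (-0.53), Cyb5b (-0.53) and Cyb5r1 (-0.33), and Fads6 rose by 0.45. Cytochrome b5 and its reductases pass electrons to the desaturases. Among genes that supply acetyl-CoA and NADPH, 5 of 12 fell and 1 rose, with malic enzyme Me1 (-0.94), Aacs (-0.69), Tkt (-0.62), Pgls (-0.53) and the citrate carrier Slc25a1 (-0.43) lower and the mitochondrial acetate enzyme Acss1 higher by 0.86. The list medians were -0.33 and -0.09.

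Of the 11 genes of the elongation cycle 2 fell, Hacd1 (-0.88) and Tecr (-0.45), and Hacd3 rose by 0.27. Of 17 regulators 3 fell, Srebf2 (-0.77), Insig1 (-0.34) and the protease gene Mbtps1 (-0.26), and Fbxw7 rose by 0.27. Srebf2 encodes SREBP-2, and Insig1 a protein that retains SREBPs in the membrane. Among 13 genes of activation and esterification Agpat2 (-0.33) and Gpat4 (-0.19) fell and Acsl1 rose by 0.52. Of 17 genes of fatty acid oxidation 4 rose, Cpt1a (0.45), which carries fatty acids toward mitochondria, Hadhb (0.26), Slc25a20 (0.21) and Etfdh (0.20), and Hadh fell (-0.44). Of 9 carboxylase partners and mitochondrial synthesis genes Mecr fell (-0.31) and Oxsm rose by 0.38. The medians of these 5 lists lay between -0.09 and 0.06. In this comparison 29.8% of all genes passed and 17.4% were lower. The shares of elongation genes and of regulators that fell were near the latter.

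Between T-DM1 and untreated, where Srebf1 rose, Srebf2 (0.49, limma adjusted p = 0.0424) and Scap (0.38, adjusted p = 0.0364) rose too. Scap escorts SREBPs for processing. In this comparison 4.11% of all genes passed as higher over 24 samples, and 0.906% over the 20 samples, where Srebf1 did not pass. Aacs (0.45) and Pgls (0.41) rose, and Acsl1 (-0.58), Hacd2 (-0.32) and Me2 (-0.24) fell. Of the 21 sterol genes 0 passed in limma (2 at an unadjusted p under 0.05), with a median of 0.13. Acsl1 also fell with T-DM1 against trastuzumab (-0.80, limma adjusted p = 0.00486).

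The list genes at the extremes that did not pass are given as values. Against T-DM1, T-PNU samples had Hacd4 higher by 0.49 and Acsl3 at -0.38. Against untreated, the lowest of each list were Sqle (-0.997), Fads3 (-0.70), Hacd1 (-0.69), Me1 (-0.63), Insig1 (-0.40), Acsl3 (-0.35), Decr1 (-0.33) and Mecr (-0.23). The highest were Dgat1 (0.49), Nr1h3 (0.39), which encodes the LXR-alpha receptor, Acss1 (0.37), Cpt1a (0.31), Hacd4 (0.27), Fads6 (0.23), Mvk (0.22) and Acacb (0.15). Sqle, Fads3, Hacd1, Me1, Acsl3 and Mecr were thus lowest of their lists against both groups.

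Against trastuzumab the lowest were Sqle (-0.92), Fads3 (-0.67), Hacd1 (-0.64), Me1 (-0.58), Srebf2 (-0.54), Acsl1 (-0.28), Hadh (-0.18) and Mecr (-0.16). The highest were Fads6 (0.41), Acss1 (0.40), Dgat1 (0.36), Cpt1a (0.33), Elovl2 (0.32), Ppargc1b (0.25), Prkab1 (0.20) and Mvk (0.15). Between T-DM1 and untreated the lowest that did not pass were Acss1 (-0.49), Oxsm (-0.29), Fads6 (-0.23), Fbxw7 (-0.21), Hadhb (-0.20) and Ebp (-0.13). Among the highest were Cyb5r3 (0.36), Acads (0.28), Tecr (0.26), Acacb (0.24) and Agpat2 (0.23).

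**Figure D5:**
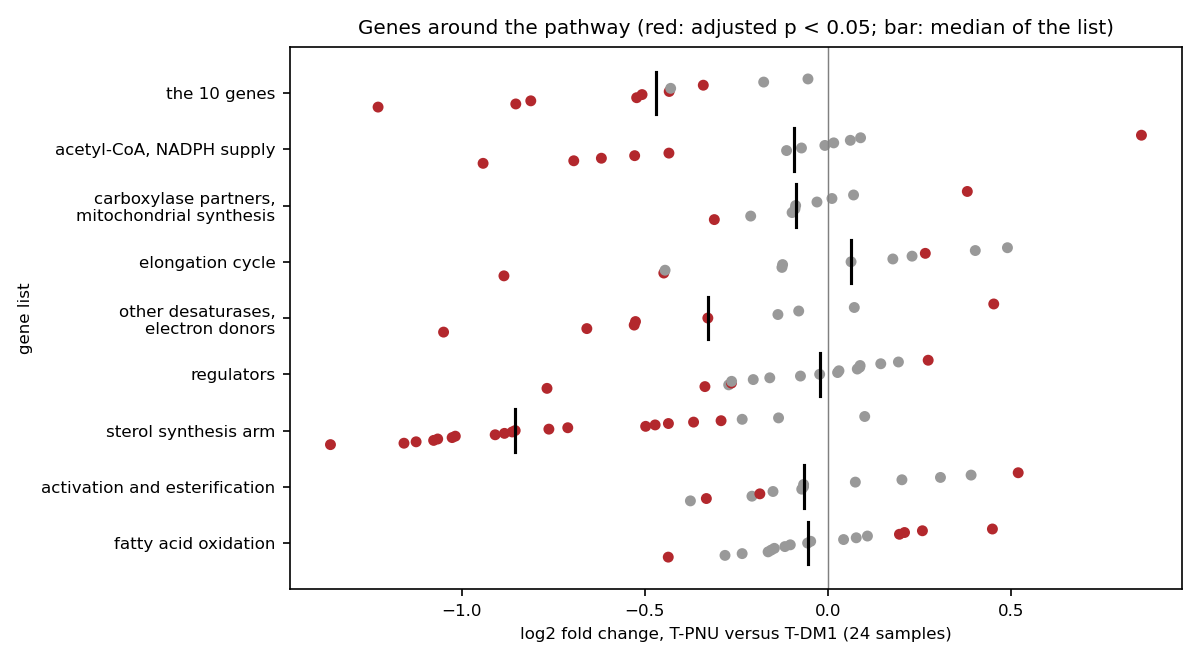
Log2 fold changes, T-PNU versus T-DM1 over 24 samples, for the 10 genes and 8 lists around them (vertical axis), with 1 point per gene, red where the adjusted p is under 0.05, and a bar at each list's median. The sterol synthesis arm has the lowest median (-0.85), and the lists outside sterol synthesis and desaturation have medians near 0.

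The genes whose deviations from group means were most like the mean deviation of the 10 members over 24 samples included Tubb2b (Pearson's r 0.954), Sh3pxd2a (0.925), Mex3a (0.920), Ttll5 (0.919), Plxnb1 (0.919), Cdon (0.919), Hsd17b7 (0.918), Mical3 (0.916) and Srebf2 (0.909). Over the 20 samples these lay between 0.70 and 0.86. Hsd17b7 encodes an enzyme of sterol synthesis. Of the members, Elovl6 (r = 0.832) and Acaca (0.821) lay closest to the mean of the other 9, and Scd1 (-0.10) farthest.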

How the data were processed

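The authors aligned reads with STAR 2.4.2a (mm10, per the submitters' processing notes), counted them per gene and strand with featureCounts (Subread 1.5.0), removed genes with few counts and used DESeq2. The deposited values are log2 expression normalized for library size. The transformation is not given in the sources used here, and log2 values shrunken gene by gene would understate fold changes. Depth is unknown, so no count model was run.

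The members and lists were chosen with earlier results of these data known. Each gene was fitted over 4 groups of 6 mice (limma 3.58.1 under R 4.3.3, eBayes with a trend), with two-sided p-values adjusted by Benjamini-Hochberg over 16996 genes. Genes were called at an adjusted p under 0.05. P-values measure the spread between mice. Correlations used two-sided permutation tests within groups (100000 permutations). Levels per kilobase used exon lengths of GENCODE M21, which holds 99.7% of the gene identifiers and gave positions on GRCm38. RefSeq promoters were matched for 7 of the 10 members, not for Scd1, Scd2 and Fads1. Steps were tested on simulated data.

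Named genes are the members, the largest and smallest log2 fold changes of each pathway list in the T-PNU comparisons and T-DM1 versus untreated, list genes called where 6 or fewer were, the 10 most alike genes, and the most abundant gene of each marker list. One gene that this rule names is not reported here. Others (Ptprc, most adipocyte genes) were chosen after their values were seen. Alternatives were the 20 heatmap samples, quantile normalization, genes above the median level, fits of the 2 groups compared, sample weights, no trend, the study's thresholds (adjusted p under 0.01, fold change above 2) and each sample left out. Figures used Python 3.11.15 and matplotlib 3.10.9.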

Additional observations from a re-analysis of the deposited data

Results flagged for a closer look

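In 3 of the 40 sets of 6 values (10 genes in 4 groups), 1 sample stood apart from the rest of its group by Dixon's criterion, and chance alone flags about 1 group in 20. All were the untreated sample C1. Acss2 stood at 9.21 in C1, with the next untreated value at 9.60. Elovl6 stood at 10.20, with the next at 11.27. Fasn stood at 11.34, with the next at 12.29. C1 is 1 of the 4 samples that are not in the study's heatmaps.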

How the results depend on the processing

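No paired analysis was possible because the labels give no replicate numbers that tie mice of different groups together. The counts of members that passed depended on the samples. Between T-PNU and untreated 0 passed over 24 samples, but 6 over the 20 samples of the heatmaps (15.7% of all genes were called lower), 6 with sample weights (17.1%) and 3 among genes above the median level (0.671%). Leaving out 1 sample at a time gave 0 to 6, with 6 without untreated C1 (9.68%) or T-PNU G1 (4.64%). Between T-PNU and trastuzumab 6 passed over the 20 samples (13.5% of all genes lower) and 6 with sample weights (7.65%). Between T-PNU and T-DM1 6 to 7 passed in the 12 fits without 1 sample (11.8% to 19.4% of all genes lower), and 1 at the study's thresholds (1.72% of all genes lower). Between T-DM1 and untreated 0 passed over the 20 samples, 0 at the study's thresholds and 3 with sample weights, beside 2.01%, 0.153% and 19.4% of all genes in either direction. The medians of the members moved by less than the spread between mice in every alternative run. That limit is wide, and leaving out 1 sample could hardly exceed it, so it does not measure stability. Dropping the trend, keeping genes above the median level or fitting only the 2 groups compared cannot change a fold change. The medians of the 3 T-PNU comparisons stayed below 0. That of T-DM1 versus untreated (0.12) turned to -0.04 over the 20 samples, -0.0024 with weights and -0.04 without untreated C1, and that of trastuzumab versus untreated (-0.05) to 0.0062 without trastuzumab E2. The cause of these differences was not tested.

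Of 1080 values of single members under an alternative, 66 had the opposite sign, none of them in T-PNU versus T-DM1. The 1080 include settings that cannot change a fold change (no trend, genes above the median level, only the 2 groups compared). For T-PNU versus T-DM1 the 20 samples hold the same mice of both groups, so that setting could not turn a sign either. T-PNU versus untreated turned to -0.051 (Fasn), -0.0097 (Scd1) and -0.0074 (Srebf1) over the 20 samples, to -0.012 (Scd1) with quantile normalization and to -0.0074 (Fasn) and -0.092 (Scd1) with weights. T-PNU versus trastuzumab turned to 0.21 (Scd1, 20 samples). T-DM1 versus untreated turned to -0.066 (Acss2) and -0.10 (Fads2) over the 20, to -0.0058 (Acss2) and 0.0018 (Elovl6) with quantile normalization and to -0.023 (Acss2) with weights. Trastuzumab versus untreated turned to -0.22 (Scd1, 20 samples), -0.044 (Scd1, weights) and -0.057 (Fads2, weights). T-DM1 versus trastuzumab turned to -0.051 (Elovl6), -0.19 (Fads1) and -0.11 (Fads2) over the 20 and to -0.064 (Fads1) with weights.

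Leaving out 1 sample at a time gave these ranges where a sign turned. T-PNU versus untreated ran from -0.088 to 0.18 for Fasn and -0.22 to 0.24 for Scd1. T-PNU versus trastuzumab ran from -0.10 to 0.00037 for Acly and -0.27 to 0.051 for Scd1. T-DM1 versus untreated ran from -0.048 to 0.068 for Acss2, -0.21 to 0.10 for Elovl6, -0.060 to 0.025 for Acly, -0.041 to 0.42 for Scd1 and -0.0020 to 0.31 for Fads2. Trastuzumab versus untreated ran from -0.073 to 0.011 for Acly, -0.094 to 0.36 for Scd1, -0.23 to 0.041 for Scd2, -0.18 to 0.034 for Fads1 and -0.19 to 0.20 for Fads2. T-DM1 versus trastuzumab ran from -0.012 to 0.14 for Fasn, -0.14 to 0.0014 for Acaca, -0.0093 to 0.036 for Acly, -0.037 to 0.23 for Scd1 and -0.10 to 0.11 for Fads1. Depth is unknown, so no limit from counting can be given.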
